A study of Mus musculus with 6 samples.

Results

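The CC chemokine genes described here were Ccl2, Ccl3, Ccl4, Ccl5, Ccl6, Ccl7, Ccl8, Ccl9, Ccl12 and Ccl24, 10 of the 22180 genes with a probe set of their own on the array. They were chosen by name from a larger family, with earlier results of these data known, and each had 1 probe set annotated to its symbol alone and none shared with another symbol. The cells were macrophages grown for 7 days with the growth factor M-CSF from bone marrow of 3 C57BL/KaLwRij mice and then kept overnight with 5TGM1-luc cells, a mouse myeloma line that carries luciferase. Treated cultures received 0.5 nM of an antibody against mouse CSF1R, the receptor for M-CSF, for 3 days. The control cultures received an IgG antibody for the same time, and both had met the myeloma cells. RNA was taken after 4 washes meant to remove the myeloma cells, and 3 antibody arrays were set against 3 IgG arrays. No label gives an animal's age or ties a replicate to a mouse, so p-values speak only of the spread among these samples, part or all of which can be technical.

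Chemokines are small secreted proteins that draw cells along a concentration gradient by binding receptors coupled to G proteins. Those of the CC group, named for a pair of adjacent cysteines, attract mainly monocytes, macrophages, T cells and eosinophils. Macrophages are a major source of them during inflammation, and many CC chemokine genes are induced through NF-kB or through interferon. Myeloma cells are themselves known to make CCL3, which promotes bone resorption, so part of a transcript in these cultures may come from either cell. In such bulk samples, fewer cells of a type and less RNA per cell cannot be told apart.

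Of the 10 genes, 9 lie on chromosome 11 in 2 runs of neighbours, and Ccl24 lies on chromosome 5. One run reads Ccl2, Ccl7, Ccl11, Ccl12, Ccl8 and Ccl1, and the other Ccl5, Ccl9, Ccl6, Ccl3 and Ccl4, with no other protein-coding gene inside either in the RefSeq annotation of GRCm38.p6. The RefSeq promoter table of that build matched 5 of the 10 genes, Ccl3, Ccl6, Ccl8, Ccl9 and Ccl12. They are printed because they include the 2 genes with the greatest rises (Ccl8 and Ccl12) and 3 neighbours of the other run. Each is the 250 bases before the annotated start, 5′ to 3′ on the gene's strand. These are chr11:82114935-82115184 and chr11:82101595-82101844 on the plus strand, and chr11:83578637-83578886, chr11:83593088-83593337 and chr11:83649379-83649628 on the minus strand. Capitals mark matches to any of 4 motifs on either strand, which were GGG, any 3 bases and TTCC for NF-kB, TTTC, any 2 bases and TTTC for the interferon-stimulated response element, TGANTCA for AP-1 and TATAAA for the TATA box.
Ccl8: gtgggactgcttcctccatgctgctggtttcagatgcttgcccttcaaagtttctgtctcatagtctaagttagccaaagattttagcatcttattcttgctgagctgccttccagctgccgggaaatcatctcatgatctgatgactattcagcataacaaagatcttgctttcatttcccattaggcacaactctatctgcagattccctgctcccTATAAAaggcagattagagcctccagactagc
Ccl12: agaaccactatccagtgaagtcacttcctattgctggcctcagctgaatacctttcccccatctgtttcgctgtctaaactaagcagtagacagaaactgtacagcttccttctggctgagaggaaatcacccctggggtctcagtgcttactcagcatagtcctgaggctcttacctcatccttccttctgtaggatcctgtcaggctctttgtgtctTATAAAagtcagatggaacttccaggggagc
Ccl9: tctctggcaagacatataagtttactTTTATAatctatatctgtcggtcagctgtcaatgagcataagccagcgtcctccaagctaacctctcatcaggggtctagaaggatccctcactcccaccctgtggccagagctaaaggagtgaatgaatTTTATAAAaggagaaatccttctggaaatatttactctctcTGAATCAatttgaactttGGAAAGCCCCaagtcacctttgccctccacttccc
Ccl6: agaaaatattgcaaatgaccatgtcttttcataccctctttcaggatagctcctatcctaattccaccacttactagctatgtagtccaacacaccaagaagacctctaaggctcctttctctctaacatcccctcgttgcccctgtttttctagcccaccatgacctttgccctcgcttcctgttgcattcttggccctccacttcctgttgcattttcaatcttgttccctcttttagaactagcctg
Ccl3: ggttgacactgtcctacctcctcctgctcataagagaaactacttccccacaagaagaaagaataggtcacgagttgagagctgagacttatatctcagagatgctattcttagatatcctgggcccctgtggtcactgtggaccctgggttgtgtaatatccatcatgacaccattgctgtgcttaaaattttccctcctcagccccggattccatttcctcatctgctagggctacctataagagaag

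Ccl8 and Ccl12 each held 1 TATA box in the usual place, at bases −32 to −27 and −31 to −26 before the start. A TATA box was found in 3 of the 5 promoters, against 12.4% of 32851 promoters of the same length. Ccl9 alone of the 5 held the NF-kB motif, at bases −35 to −26 on the other strand. It alone also matched the AP-1 pattern, at −53 to −47, with A at the free base (TGAATCA). That pattern takes any base in the middle, so it is looser than a list of known AP-1 sites. Over all promoters the NF-kB motif was found in 4.65% and this loose AP-1 pattern in 6.75%. In Ccl9, 2 of its 3 TATA matches overlap each other, and the matches lie farther from the start than in Ccl8 and Ccl12. The interferon motif was in 0 of the 5 windows and in 2.98% of all promoters. A match is a run of letters and was not tested as a binding site.

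After the CSF1R antibody, 9 of the 10 CC chemokine genes were higher than with IgG and 0 were lower (limma, Benjamini-Hochberg adjusted p under 0.05). Over all genes, 28.5% passed that test, 12.5% as higher and 16.0% as lower. These shares are larger among genes with more signal, where most members lie. With only genes above the 50th percentile of signal tested, 2822 were higher and 4034 were lower, and 9 members were higher. The 10 are not the whole family: of 9 other CC chemokines measured, 1 was higher and 1 was lower. At least 2-fold rises were found in 5 members, against 2.89% of all genes, and 2-fold falls in 0 members, against 0.0631% of all genes. The 3 antibody arrays lay wholly above the 3 IgG arrays for 9 members, against 16.6% of all genes, and wholly below them for 0 members, against 22.7% of all genes. The median difference over the members was 1.19 on the log2 scale, beside −0.02 over all genes. Rises differed widely within the family, between 0.48 for Ccl2 and 4.14 for Ccl8.

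**Figure D1:**
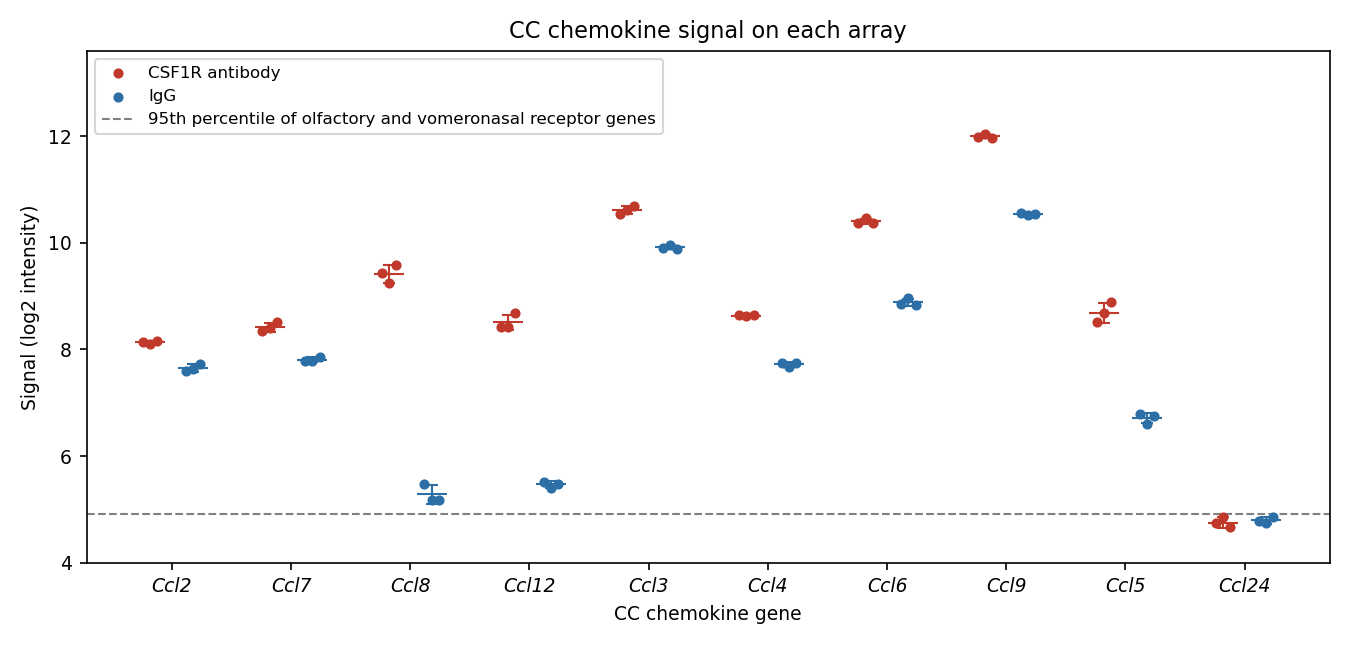
Signal of each CC chemokine gene on each array (vertical axis, log2 intensity), with CSF1R antibody arrays left of IgG arrays, dots for single arrays, and bars for the mean and SD of 3 arrays. The antibody arrays sit above the IgG arrays for all genes but Ccl24, which lies below the dashed line at 4.92, below which 95% of odorant and pheromone receptor genes lie.

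The monocyte chemoattractant genes held both the greatest and the smallest of the rises. Ccl8, whose mouse product acts through the receptor CCR8, had log2 signals of 9.43, 9.25 and 9.59 on the antibody arrays, against 5.49, 5.18 and 5.19 on the IgG arrays. The lowest antibody array was thus 3.76 above the highest IgG array. The rise was 4.14 (SE 0.12; 17.6-fold; limma adjusted p = 8.5e-06), and 0 of the 22180 genes had a larger one. Ccl12, the mouse chemokine MCP-5 that attracts monocytes through CCR2, had signals of 8.41, 8.43 and 8.68 with the antibody, against 5.52, 5.40 and 5.48 with IgG. The groups were 2.89 apart at their nearest. Its rise was 3.04 (SE 0.08; 8.21-fold; limma adjusted p = 8.1e-06), and 3 genes rose more.

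With IgG, both genes were close to the level where signal can no longer be told from background. Background was gauged here from 1390 odorant and pheromone (Olfr and Vmnr) receptor genes, which macrophages are not known to need, and 95% of their means lay below 4.92. Of those receptor genes, 36 had a mean at or above the IgG mean of Ccl8 (5.28 ± 0.18; SD, n = 3), and 27 were at or above that of Ccl12 (5.47 ± 0.06). With 32 added to each intensity before the logarithm, which damps low signals, the rises were 3.34 and 2.37. Only 1 receptor gene reached either antibody mean.

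Ccl2 and Ccl7, the other CCR2 ligands among the members, rose less. Ccl2, the main attractant of inflammatory monocytes, had signals of 8.13, 8.10 and 8.17 with the antibody, against 7.59, 7.63 and 7.73 with IgG. The groups did not overlap, and the nearest arrays were 0.37 apart. The rise was 0.48 (SE 0.06; 1.40-fold; limma adjusted p = 9.1e-04). Ccl7, which also binds CCR1 and CCR3, had signals of 8.34, 8.40 and 8.51 with the antibody, against 7.79, 7.78 and 7.86 with IgG. This was a rise of 0.61 (SE 0.06; 1.52-fold; limma adjusted p = 5.2e-04), again with no overlap. The 95% intervals were 3.86 to 4.42 for Ccl8, 2.84 to 3.24 for Ccl12, 0.46 to 0.75 for Ccl7 and 0.35 to 0.62 for Ccl2, so those of Ccl2 and Ccl7 overlapped each other and neither reached that of Ccl8 or Ccl12.

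Ccl3 and Ccl4, which encode the macrophage inflammatory proteins MIP-1 alpha and MIP-1 beta, rose by less than 2-fold. Ccl3 had signals of 10.55, 10.61 and 10.69 with the antibody, against 9.91, 9.95 and 9.89 with IgG. All antibody arrays were higher, and the rise was 0.70 (SE 0.05; 1.63-fold; limma adjusted p = 1.8e-04). Ccl4 had signals of 8.64, 8.62 and 8.64 with the antibody, against 7.74, 7.67 and 7.75 with IgG. Its antibody arrays were the tightest set among the members, with an SD of 0.01, and the rise was 0.91 (SE 0.05; 1.88-fold; limma adjusted p = 2.9e-05). The 95% intervals were 0.57 to 0.83 for Ccl3 and 0.80 to 1.02 for Ccl4.

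Ccl6 and Ccl9, CCR1 ligands of rodents that encode C10 and MIP-1 gamma, rose by nearly the same amount. Ccl6 had signals of 10.37, 10.46 and 10.38 with the antibody, against 8.86, 8.96 and 8.84 with IgG. The groups were 1.41 apart at their nearest, and the rise was 1.52 (SE 0.06; 2.86-fold; limma adjusted p = 1.1e-05). Ccl9, which osteoclasts also make, had signals of 11.99, 12.05 and 11.97 with the antibody, against 10.56, 10.52 and 10.55 with IgG. Its rise was 1.46 (SE 0.05; 2.75-fold; limma adjusted p = 9.3e-06), with a gap of 1.42 between the groups. The 95% intervals of Ccl6 (1.38 to 1.65) and Ccl9 (1.35 to 1.57) overlapped.

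Ccl5, or RANTES, attracts T cells and monocytes through receptors that include CCR1 and CCR3. Its signals were 8.51, 8.68 and 8.88 with the antibody, against 6.78, 6.61 and 6.75 with IgG. These antibody arrays were the most widely spread of any member (SD 0.19), yet the lowest lay 1.73 above the highest IgG array. The rise was 1.98 (SE 0.10; 3.94-fold; limma adjusted p = 3.2e-05). Ccl24, the eosinophil attractant eotaxin-2 that binds CCR3, had signals of 4.74, 4.86 and 4.66 with the antibody, against 4.79, 4.74 and 4.87 with IgG. The groups overlapped, and all 6 values lay below the receptor gene guide. The difference was −0.04 (95% interval −0.20 to 0.12; limma adjusted p = 0.70), and at this signal it does not show whether Ccl24 changed.

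Within the antibody group, replicate 3 had the highest signal for 7 of the 10 genes and replicate 1 for 0. The median deviation of the members from their group mean was 0.06 on replicate 3, beside 0.00 for all genes on that array. Among the IgG arrays, replicate 2 was the lowest for 7 members, with a median deviation of −0.04. These shifts were small beside every called difference, and the SD within a group ran between 0.01 and 0.19 over the members.

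**Figure D2:**
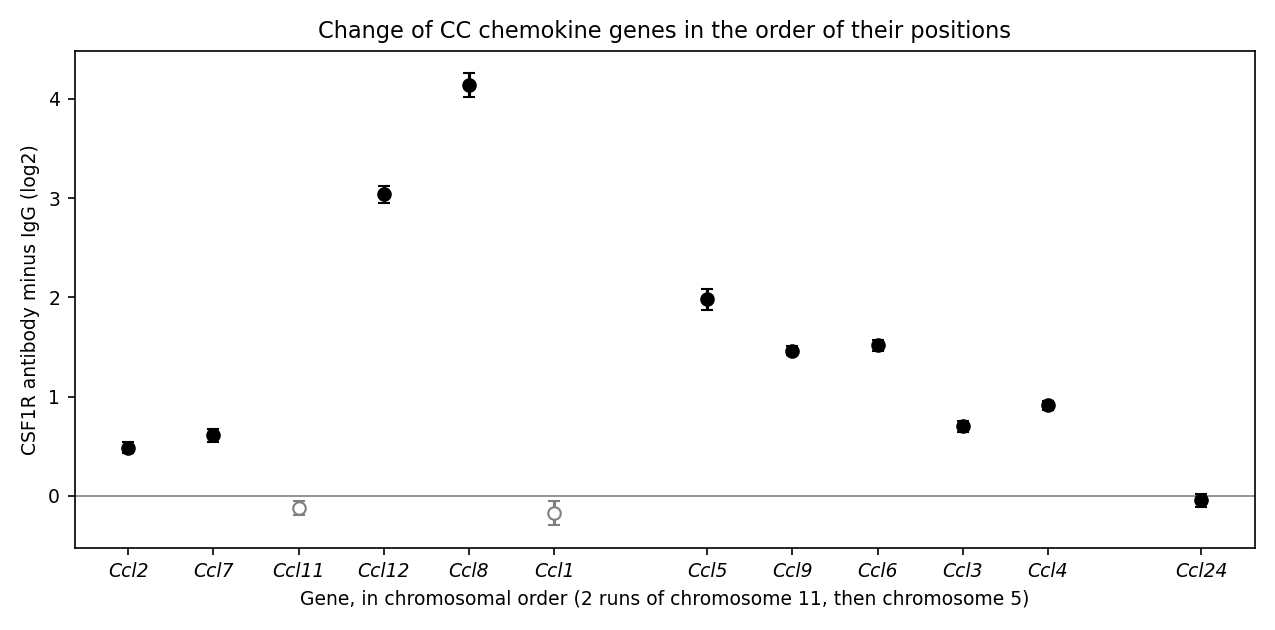
Difference between CSF1R antibody and IgG arrays (vertical axis, log2; bars are limma's SE) for CC chemokine genes in chromosomal order, with open points for Ccl11 and Ccl1, which belong to the run but not to the 10 genes. Ccl12 and Ccl8 stand next to each other at 3.04 and 4.14, with Ccl11 at −0.13 and Ccl1 at −0.17 on either side. Ccl11, Ccl1 and Ccl24 had only background signal, so their points do not show whether they changed.

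Position on chromosome 11 gave no common value for a run. In the run that starts with Ccl2, the adjacent genes Ccl12 and Ccl8 rose by 3.04 and 4.14. Their direct neighbours Ccl11, an eosinophil attractant, and Ccl1, a CCR8 ligand, had differences of −0.13 (limma adjusted p = 0.27) and −0.17 (limma adjusted p = 0.37), with both means below the receptor gene guide in both groups. In the other run, Ccl5, Ccl9 and Ccl6 rose by 1.98, 1.46 and 1.52, and Ccl3 and Ccl4 beyond them by 0.70 and 0.91. All 5 genes of that run were higher with the antibody.

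Of 13 other CC chemokines listed, 9 had a probe set of their own, and of those 1 was higher and 1 was lower, with a median of −0.09. Ccl25, known from the thymus and small intestine, had a mean of 7.62 ± 0.10 with the antibody, against 8.01 ± 0.02 with IgG (SD, n = 3), and fell by 0.39 on the log2 scale (limma adjusted p = 0.0040). Ccl17, a CCR4 ligand, was called higher by 0.17 (limma adjusted p = 0.044) at means of 3.36 with the antibody and 3.19 with IgG, far below the receptor gene guide, and lost the call without any 1 of the 6 arrays (adjusted p 0.055 to 0.11). Only 4 of the 9 lay above the guide in either group.

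Of 10 CC chemokine receptor genes measured, 4 were higher with the antibody and 0 were lower, with a median of 0.07. Ccr1, the receptor of Ccl3, Ccl5, Ccl6, Ccl7 and Ccl9, had a mean of 8.24 ± 0.13 with the antibody, against 7.53 ± 0.08 with IgG, and rose by 0.71 (SE 0.08; limma adjusted p = 8.1e-04). Ccr2, the receptor of Ccl2, Ccl7 and Ccl12, had a mean of 6.20 ± 0.14 with the antibody, against 5.56 ± 0.10 with IgG, and rose by 0.63 (SE 0.09; limma adjusted p = 0.0020). Ccr3, the receptor of Ccl24 and Ccl5, rose by 0.69 (SE 0.11; limma adjusted p = 0.0032). The remaining call, Ccr1l1, lay below the receptor gene guide in both groups and did not survive the removal of any of 5 arrays (adjusted p 0.054 to 0.074). Ccr8, the receptor of mouse Ccl8, had means of 3.30 with the antibody and 3.63 with IgG (limma adjusted p = 0.16), both below the guide. Among 6 atypical chemokine receptors and related genes, 1 was higher and 0 were lower. This was Ccrl2, a receptor that binds chemerin without signalling, at 7.94 ± 0.07 with the antibody, against 6.53 ± 0.06 with IgG, a rise of 1.41 (SE 0.06; limma adjusted p = 1.6e-05).

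**Figure D3:**
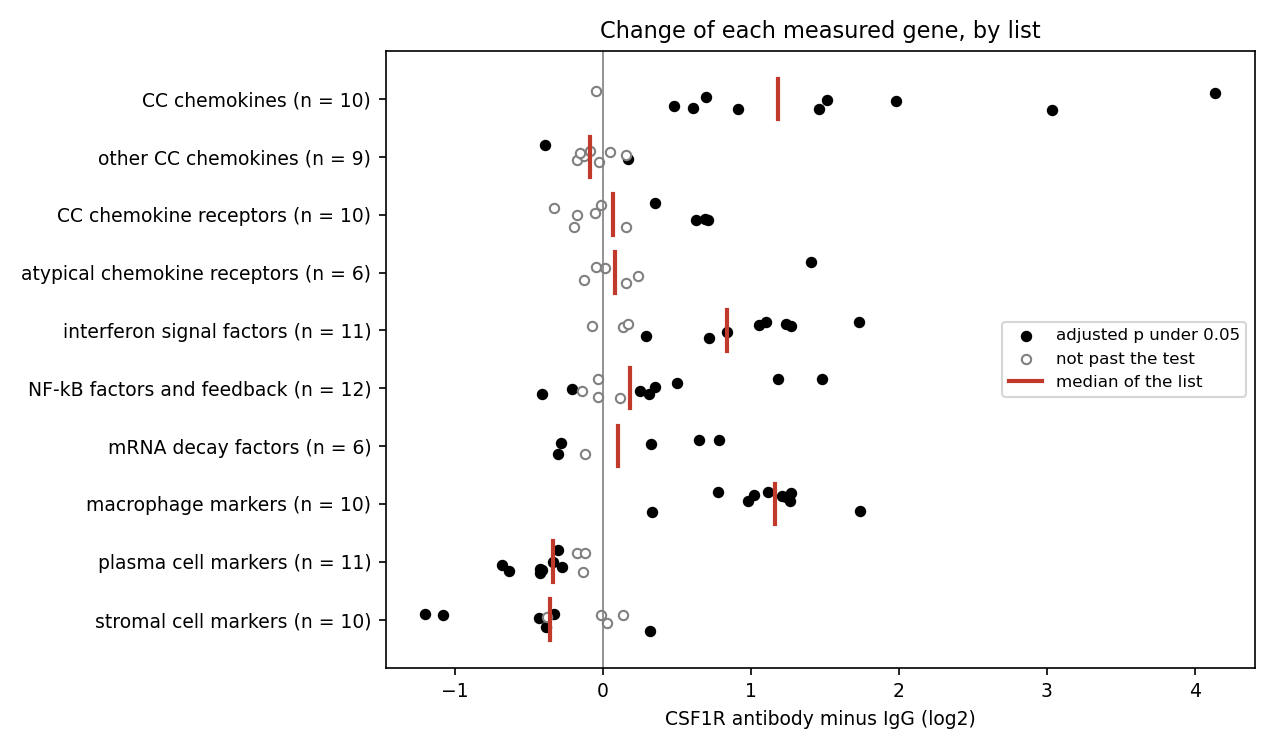
Difference between CSF1R antibody and IgG arrays for each measured gene (horizontal axis, log2) by list, with filled points for genes past the test, open points for the others, red lines for list medians and random vertical spread. The 10 CC chemokines have a median of 1.19, close to the 1.17 of 10 macrophage markers, and the 9 other CC chemokines one of −0.09.

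Genes of the pathways known to induce CC chemokines moved unevenly. Of 11 interferon signal factors measured, 8 were higher and 0 were lower, with a median of 0.84. Irf8, a myeloid interferon regulatory factor, rose by 1.73 (SE 0.05; 1.13 with the mean of its probe sets), Irf7 by 1.27 (SE 0.04), Stat2 by 1.24 (SE 0.05) and Irf1 by 1.10 (SE 0.06; limma adjusted p for these 4 between 8.1e-06 and 3.4e-05). Irf8 had the same value (9.41) on all 3 antibody arrays, and Irf7 the same (9.83) on all 3 IgG arrays. Their SEs may thus understate the spread. Ifnb1, which encodes interferon beta, lay below the receptor gene guide at 3.05 with the antibody and 2.88 with IgG. Of 12 NF-kB factors and feedback genes, 6 were higher and 2 were lower, with a median of 0.19. The kinase gene Ikbke rose by 1.48 (SE 0.13), Bcl3, a nuclear cofactor of NF-kB, by 1.18 (SE 0.09) and Nfkbie, for an inhibitor of NF-kB, by 0.50 (SE 0.05), while Nfkbiz, another nuclear cofactor, fell by 0.41 (limma adjusted p = 0.0015). Of 6 factors that bind AU-rich or structured mRNA, 3 were higher and 2 were lower. Zfp36, or tristetraprolin, which speeds the decay of cytokine mRNAs, rose by 0.79 (SE 0.07), Zfp36l1 by 0.65 (SE 0.07) and Zfp36l2 by 0.33 (SE 0.05). Rc3h1, which encodes roquin-1, was lower by the main test (−0.30; limma adjusted p = 0.017), but the call was lost with cyclic loess scaling (−0.19; adjusted p = 0.059), with a replicate block (adjusted p = 0.054) and without any of 4 arrays (adjusted p 0.052 to 0.062). Among 11 genes whose products trim or bind chemokines, 3 were higher and 5 were lower. Sdc4, a heparan sulfate proteoglycan, rose by 1.69 (SE 0.07) and the protease gene Mmp14 by 0.59 (SE 0.06), while Mmp2 fell by 0.55 and Cd44 by 0.38.

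By distance between profiles, the 3 members that rose most had neighbours at unequal distances. Profiles were log2 values less the IgG mean over the 6 arrays, and the distance was the root mean square over arrays. Nearest to Ccl12 were the interferon-induced Ifit1bl1 (0.12), the adhesion receptor gene Adgre4 (0.19) and Clec4e, for the lectin Mincle (0.24). Nearest to Ccl5 were Lpcat2, for an enzyme that makes platelet-activating factor (0.07), Ticam2, for an adaptor of Toll-like receptor 4 (0.09), and Phf11b (0.09). Ccl8 had no close match, since its nearest gene, the cytokine gene Il1b, was 0.58 away. With 2 groups, such a distance reflects chiefly the size of the change, so it is a description of these arrays only.

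Markers of the cells in culture moved on the same arrays. All 10 macrophage markers were higher with the antibody, with a median change of 1.17 and a range from 0.33 for Cd68 to 1.74 for Cd14. The largest after Cd14 were Adgre1, for a macrophage adhesion receptor, at 1.27, the Fc receptor gene Fcgr1 at 1.27 and Mertk, for a receptor of apoptotic cell uptake, at 1.24. The summed signal of the 10 was 14.82 to 14.87 with the antibody, against 13.98 to 14.05 with IgG. Of 11 plasma cell markers, 0 were higher and 8 were lower, with a median of −0.33, and their summed signal was 14.04 to 14.17 with the antibody, against 14.38 to 14.42 with IgG. Eaf2 fell by 0.68, the B lineage coactivator gene Pou2af1 by 0.63, Cd79b by 0.42 and Jchain by 0.42. Plasma cell transcripts were thus measured in both groups after the washes, and Tnfrsf17 alone of that list lay below the receptor gene guide in both. Of 10 stromal markers, 1 was higher and 5 were lower, and their summed signal was 10.04 to 10.11 with the antibody, against 10.93 to 10.98 with IgG. Acta2, for smooth muscle actin, fell by 1.20 (SE 0.05) and Postn, for periostin, by 1.08 (SE 0.04), with limma adjusted p = 1.5e-05 for Acta2 and 1.3e-05 for Postn. Col1a1 fell by 0.38 and Col1a2 by 0.43, and the call of Col1a2 was lost when its probe sets were averaged (adjusted p = 0.094). The 1 higher gene was Dcn, at 4.43 with the antibody and 4.11 with IgG, which like Lum lay below the guide in both groups. Of 9 T and NK cell markers, Cd4, which macrophages can express, was higher and 0 were lower, while Cd3e, Cd3d and Cd3g lay below the guide. No neutrophil marker passed in either direction, with limma adjusted p = 0.23 for Ly6g and 0.29 for Mpo. S100a8, S100a9, Ly6g and Elane were below the guide. Cxcr2 lay just above it, at 5.09 with the antibody and 5.06 with IgG. Eosinophil and mast cell markers included 1 lower gene, Il5ra, with Epx, Prg2, Cpa3 and Fcer1a below the guide, and 0 of 6 dendritic cell markers passed (Zbtb46 had adjusted p = 0.15 and Xcr1 0.21). The part of these markers' cells in the chemokine result was not tested.

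Relative to the macrophage markers of the same array, some CC chemokines rose more and others less than the mean of the 10. This scale, chosen after the values were seen, is the log2 signal less the mean of the 10 markers, which itself rose by 1.10. Csf1r, the gene of the antibody's target, was among the markers and rose by 1.12. Whether the antibody changed marker transcripts within cells was not tested, so the scale is not a measure of macrophage number. Ccl8 rose beyond that mean by 3.04, Ccl12 by 1.94, Ccl5 by 0.88, Ccl6 by 0.42 and Ccl9 by 0.36. Ccl2 lagged that mean, with a difference of −0.61, as did Ccl7 at −0.49, Ccl3 at −0.40 and Ccl4 at −0.18. Single markers rose by 0.33 to 1.74, so the rises of Ccl8, Ccl12 and Ccl5 lay above the range of the markers, and those of the other 6 called members lay within it. On this scale the antibody arrays lay wholly above the IgG arrays for 5 members, against 1.69% of all genes. They lay wholly below for the other 5, Ccl24 with its background signal among them, against 96.6% of all genes, since the scale takes the markers' rise from every gene. The two-sided exact permutation test gave p = 0.10 for each, the smallest that 3 against 3 arrays allow. Any gene whose groups do not overlap gets this value, so it adds nothing to the counts of arrays above.

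**Figure D4:**
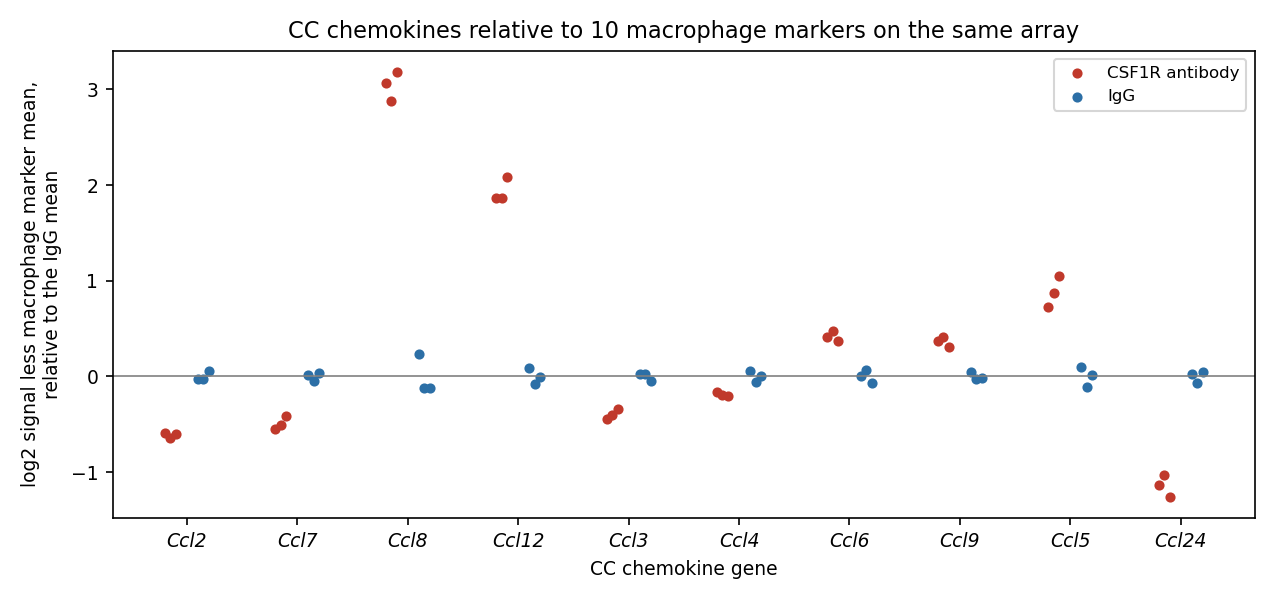
CC chemokine signal less the mean of 10 macrophage markers on the same array, relative to the IgG mean of each gene (vertical axis, log2), with CSF1R antibody arrays left of IgG arrays and a dot for each array. Ccl8, Ccl12, Ccl5, Ccl6 and Ccl9 lie above the IgG arrays, at 0.36 to 3.04 on average, and Ccl2, Ccl7, Ccl3 and Ccl4 lie below them, at −0.61 to −0.18, while Ccl24 had only background signal.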

How the data were processed

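Total RNA of 6 samples was labelled with biotin and measured on GeneChip Mouse Gene 2.0 ST arrays, per the labels. The deposited intensity values, 1 for each probe set, are linear. The submitters' processing notes list RMA and limma, with neither version nor role. RMA as commonly run makes arrays alike in distribution and compresses low signals. The genome build and the level of summarization are not given in what was used here. Values were taken as log2. Of 41345 probe sets, 23521 had 1 gene symbol and only these were used, taking per gene that of highest mean. Names matched the RefSeq table of GRCm38.p6 by Entrez identifier for 21994 of 22180 genes and for all 10 members.

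Array medians lay between 4.88 and 4.95 (log2), and arrays correlated at 0.992 to 0.993 within a group and 0.984 to 0.985 between groups. Up to 6.88% of probe set values were identical between 2 arrays, so the SE of some genes can be too small. The 3 arrays a group limit the precision. The test was limma 3.58.1 under R 4.3.3 (lmFit, eBayes, no filter) with Benjamini-Hochberg adjustment over 22180 genes. In simulated data with 200 changed genes it found 52.2% of log2 changes of 0.5 and 88.4% of those of 1. There 2.63% of calls were false. The simulation had independent noise and far fewer changed genes than the 28.5% called here, so its rates need not hold for these arrays. SE is limma's moderated standard error.

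The members and lists were chosen with earlier results of these data known. All 10 members are named, and from each list up to 4 genes with the largest difference past the test, or the 2 with the smallest p where none passed. The markers below the receptor guide and other names outside this rule were chosen after their values were seen. Nearest profiles were sought among genes, other than CC chemokines, with a mean above the receptor guide. Same-numbered arrays of the groups correlated in their deviations from group means at 0.03, −0.05 and 0.00, beside −0.07 to 0.07 for differently numbered ones. No pairing by number was thus detected, but so few arrays cannot exclude a shared mouse or batch. Alternatives were variance models, array weights, scalings, filters, an offset, probe set means, thresholds, a replicate block and leaving out each array. The planned identity between proteins was not computed. Figures used matplotlib 3.10.9 in Python 3.11.15.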

Additional observations from a re-analysis of the deposited data

How the results depend on the processing

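The count of 9 higher and 0 lower CC chemokines was the same under each of these alternatives: an intensity trend, robust variances, array weights, median centring, cyclic loess, both signal filters, an offset of 32, a threshold of 0.01, a replicate block and each array left out. Averaging probe sets could not change it, as each member has 1. Requiring a 2-fold change as well left 5 higher, since Ccl2 (0.48), Ccl7 (0.61), Ccl3 (0.70) and Ccl4 (0.91) fall short of it, and 655 genes in all in place of 6314. The replicate block gave 9 higher and 0 lower members and 5549 genes in all. Ccl24, not called in any setting that tested it, ran between −0.0941 and 0.0018 without single arrays, and was above 0 without CSF1R antibody replicate 3 alone. With cyclic loess, 57.7% of all called genes were higher in place of 43.8%, as 3334 genes were higher and 2444 lower, and with a threshold of 0.01 2232 genes were lower in place of 3548. Leaving out single arrays gave 4.06 to 4.24 for Ccl8, 2.95 to 3.08 for Ccl12 and 0.45 to 0.52 for Ccl2. The values relative to macrophage markers kept their sign without Csf1r among the markers and without any 1 array. Signal near background limits Ccl24, and Ccl8 and Ccl12 with IgG.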
